A study of Homo sapiens with 79 samples.

Results

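The mRNAs of the cytosolic ribosomal proteins (RP mRNAs) were followed through fRIP-seq in K562, an established human leukemia cell line of erythroid character that grows in suspension. The members were the rows of the gene table with symbols of the RPL and RPS series, together with RPLP0, RPLP1, RPLP2 and RPSA, and pseudogenes named with a P and a number were left out. This gave 84 of 48453 genes, of which 50 belong to the large and 34 to the small subunit, and 82 of them (49 large, 33 small) passed the filter on low values of at least 1 FPKM in at least 2 libraries. FPKM is the number of fragments scaled to transcript length and to the total fragments of the library. In fRIP-seq, cells are cross-linked lightly with formaldehyde (0.1% here), sonicated, and a single protein is precipitated with an antibody, after which the RNA that comes down is sequenced beside input RNA of the lysate. All 79 libraries came from the same untreated line and the same crosslink, and ribosomal RNA was removed before sequencing.

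The 70 fRIP libraries covered 24 targets, of which 22 had 3 libraries, while EZH2 and STAG2 had 2. The 9 input libraries were labelled as 3 sets of 3. The targets were 6 RNA binding proteins (PABP, HUR, IMP1, ADAR, HNRNPU and HNRNPH1) and 18 chromatin-associated proteins (SUZ12 and EZH2; CHD1, CHD7 and CHD4; CBX3 and its phosphorylated form phospho-CBX3; LSD1, PHF8, HDAC1 and DNMT1; WDR5 and RBBP5; PCAF and CBP; CTCF, STAG2 and NUP98). Replicates were lysates of different dates, according to the study's methods. Each target was drawn with 1 antibody, and no fRIP with an unrelated antibody was used here, so every comparison is of fRIP with input. The study took up STAG2, a cohesin subunit, as a negative control, to show how much RNA comes down without specific binding. It then reported that STAG2 fRIP strongly enriched a small set of genes, STAG2 mRNA among them, and proposed that the experiment was valid. STAG2 fRIP is therefore not a plain measure of background. The second STAG2 library carries no number that matches its label. Depth, inferred from the spacing of low FPKM values, was 1.82 M to 55.1 M fragments for the fRIP libraries (median 12.6 M), lowest in ADAR and highest in DNMT1 fRIP, and 11.2 M to 28.5 M for the inputs (median 19.7 M). The 8 erythroid markers examined were all present in the inputs, with GATA1 at 82.3 ± 11.8 FPKM (SD, n = 9) and the transferrin receptor gene TFRC at 284 ± 33.5 FPKM.

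Ribosomal proteins assemble with ribosomal RNA into the small subunit, which binds and decodes mRNA, and the large subunit, which forms peptide bonds. The genes are transcribed strongly in growing cells and their mRNAs are short, stable, polyadenylated and heavily translated. Many of these mRNAs begin with a cytosine followed by a run of pyrimidines, the 5′ terminal oligopyrimidine (TOP) motif, through which their translation follows growth signals. Several RP genes hold small nucleolar RNA (snoRNA) genes in their introns, and nearly all have left processed pseudogenes across the genome.

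The start sites of the members on which the results turn are given as they appear in RefSeq, to let the TOP run be seen beside the values. Each line gives 25 bases of the sense strand, 5 before and 20 from the annotated start, and capitals mark a C within 1 base of the start with the unbroken run of at least 4 pyrimidines after it.
RPLP1: gagagCCCCTTTCCTCagctgccgc
RPLP2: gccttCCTTTTCCTCCCTgtcgcca
RPLP0: gaggCCCTTCTCTCgccaggcgtcc
RPL39: agcttCCCTCCTCTTCCTTTCTCCg
RPS12: gaggCCTCTTTCCCTgccgccgccg
RPS28: acgtgaCTCCTCTCCgccagaccgc
RPL22: acctCCCTTTCTaactccgctgccg
RPSA: cctgtCTTTTCCgtgctacctgcag
RPL3: ccggCCTCTaccggcgggatttgat
RPL10: ctcagaaatatacgtctgtcacagt

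Matched exactly to hg19 (GRCh37), these windows lie at chr15:69745152-69745176 on the plus strand (RPLP1), chr11:809962-809986 plus (RPLP2), chr12:120638895-120638919 minus (RPLP0), chrX:118925574-118925598 minus (RPL39), chr6:133135703-133135727 plus (RPS12), chr19:8386375-8386399 plus (RPS28), chr1:6259636-6259660 minus (RPL22), chr3:39448206-39448230 plus (RPSA), chr22:39715609-39715633 minus (RPL3) and chrX:153626401-153626425 plus (RPL10). In the GRCh37 annotation at least 1 transcript of each gene starts within its window, except for RPL10, whose window lies in a later exon of 2 transcripts, and no window reaches annotated coding sequence. Other transcripts of RPLP0, RPS28, RPL3, RPL10 and RPL22 start upstream of the window, the outermost by 119, 333, 761, 8086 and 9789 bases. RPLP1, RPL39, RPS12 and RPS28 are among the members that were depleted in the most fRIPs, whereas RPL3 and RPSA were among those depleted in the fewest. RPS29, depleted in as many fRIPs as RPLP1, held no run in its window. A window was found for 65 members, and 44 of them (67.7%) held the run, against 8.17% of 27305 promoters in the same table. Several of those without it, among them RPL6, RPL10, RPL11, RPL15 and RPS29, have no annotated transcript that starts within the window. The run had a median length of 8.5 bases in the members, from the 5 of RPL3 to the 19 of RPL39. RPL10 held none at this start, which says only that these letters are absent from that window.

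In input, the RP mRNAs were among the most abundant RNAs of the library. The median of the members' mean input level was 603 FPKM, with 74 members at 100 FPKM or more and 17 at 1000 FPKM or more. RPL11 had the highest mean level at 1823 ± 251 FPKM (SD, n = 9), followed by RPS18 at 1545 ± 227 FPKM, and these spreads overlap. At the other end, RPL10L (0.0418 FPKM) did not pass the filter, and RPL3L and RPS10L were among the members under 10 FPKM in mean input. RPS10L is classed as a processed pseudogene in the reference, and it is counted because its symbol fits the rule. FPKM sums to a share of each library, so less of an RNA in the precipitate and more of all others cannot be told apart. In input the members made up 8.71% to 11.55% of the summed FPKM of a library.

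The comparison of fRIP with input asks which RNAs a protein recovers beyond their abundance in the lysate. RP mRNAs were recovered far above input by PABP and slightly above it by CHD4, and below input in the other 22 fRIPs (the plot of subunit medians by fRIP). An RNA was called enriched or depleted at an adjusted p under 0.05 with a log2 fold change beyond 1 in size, on the log2(FPKM + 1) scale. In PABP fRIP 80 of the 82 members tested were enriched, against 11.1% of all genes tested. In EZH2 fRIP 79 were depleted against 9.13% of all genes, in HDAC1 fRIP 77 against 5.35%, and in ADAR and HNRNPH1 fRIP 68 each against 4.31% and 7.9%. NUP98 fRIP lay at the other end, with 0 depleted by limma (5.11% of all genes), although 55 were lower at an adjusted p under 0.05 and 62 were lower at an unadjusted p under 0.05. The fRIPs are compared with the same 9 inputs and so are not independent of each other. The 79 members with at least 10 FPKM in input had a median input level of 613 FPKM, against 12.2 FPKM for 13500 other mRNA genes. Genes at low FPKM have little room to be called depleted on this scale. Over 13579 mRNA genes Spearman's correlation of input level with the log2 fold change ran from -0.41 in HNRNPU to 0.29 in PCAF fRIP. The part of abundance in the counts was not tested. When each library was centred on its own median, the median of all genes went from 0.29 to -0.69 in ADAR and from -0.16 to 0.46 in PCAF fRIP. The median over the members kept its sign in all but PCAF fRIP, where it went from -0.58 to 0.03, while that of NUP98 fRIP went from -0.47 to -0.05.

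**Figure D1:**
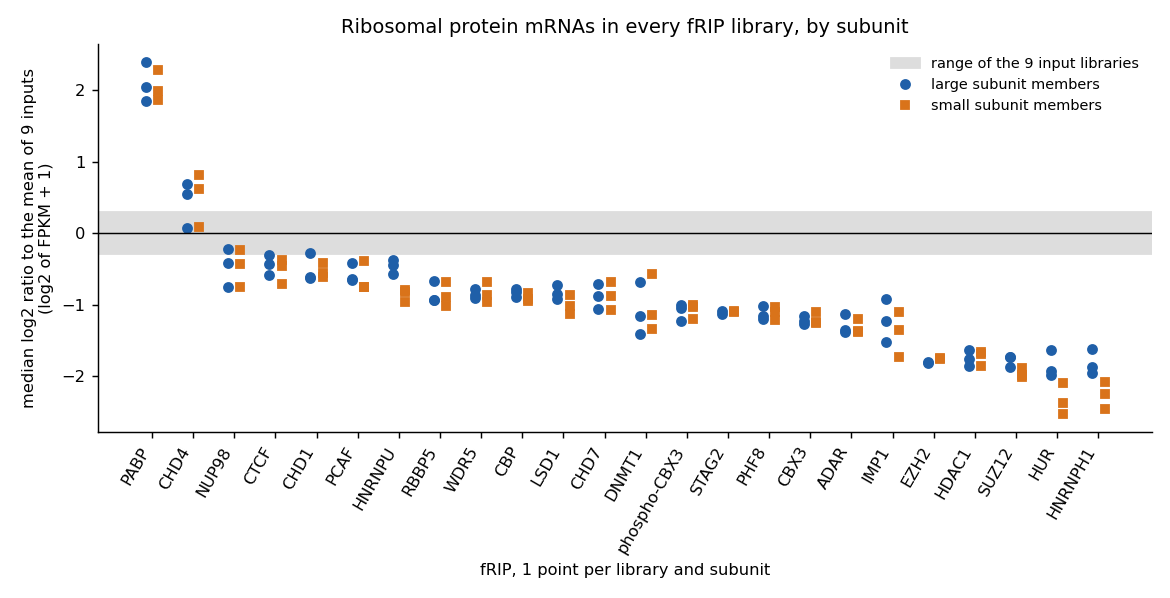
Median log2 fold change over input of the large subunit and small subunit RP mRNAs in each of the 24 fRIPs, with 1 point per library for each subunit and a grey band at the range of the 9 input libraries. PABP fRIP stands at a median of 2.05 over all members, CHD4 fRIP at 0.48, and the other 22 fRIPs lie between -2.10 and -0.47.

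In PABP fRIP, the RP mRNAs were recovered at a median of 4.14-fold over input. PABP binds poly(A) tails and takes part in mRNA translation and stability. The median log2 fold change of the members was 2.05, with 1.86, 2.03 and 2.36 in the single libraries, while the median of all genes tested was -0.15 and the 9 inputs themselves spanned -0.28 to 0.25. The members took up 22.8% to 27.6% of the summed FPKM of the PABP libraries. RPL38, a large subunit protein, had the largest change of all members. It stood at 5281, 5125 and 7408 FPKM in the 3 PABP libraries and at 609.5 to 1116 FPKM in the inputs (median 920), which was a log2 fold change of 2.78 ± 0.23 (SE, adjusted p = 1e-15). All 3 PABP libraries were above all 9 inputs for each of the 80 enriched members, against 20.3% of all genes, and the exact permutation test of each then gave 0.00455, the smallest p that 3 against 9 libraries allow. The 2 members that were not enriched were RPL3L (-0.20 ± 0.23, adjusted p = 0.473) and RPS10L (-0.69 ± 0.24, adjusted p = 0.0131), both near or under 1 FPKM in these libraries. With the input set matched to PABP the count was again 80, with a median of 1.91.

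CHD4 fRIP was the only chromatin-associated fRIP with the members above input at the median. CHD4 is the ATPase of the nucleosome remodeling and deacetylase complex. The libraries differed widely, with median log2 fold changes of 0.75, 0.08 and 0.58 and members at 15.6%, 11.7% and 13.6% of summed FPKM, so the second library stood close to the inputs. In all, 50 members were higher at an adjusted p under 0.05, 6 were enriched against 2.91% of all genes, and 0 were depleted by limma against 9.79% (2 were lower at an unadjusted p under 0.05). These were RPLP0 (1.12 ± 0.14, adjusted p = 1.26e-09), RPL5, RPL13A, RPL22, RPS7 and RPS18. RPL13A stood at 1828, 1746 and 1694 FPKM, above all inputs (739.6 to 928 FPKM, median 787). The count depended on single libraries and on the inputs chosen. It was 4 without replicate 1, where RPL22 (0.88) and RPS18 (0.96) were not called, and 11 without replicate 2, where RPL5 (0.99) was not. It was 1 with input set 3 alone, where RPLP0 fell just short of the fold threshold (0.995), and 16 with the matched set, and it rose to 30 after centring. The depleted count was 1 with the matched set or a pseudocount of 0.1 FPKM, and 0 to 1 with single libraries left out.

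The strongest losses were seen for 2 RNA binding proteins. HNRNPH1, a regulator of splicing, had a median log2 fold change of -2.10 with a library SD of 0.20, which is -2.44 relative to the median of all genes. HUR, which binds AU-rich elements, had a median of -2.02 (SD 0.21) with 65 members depleted, against 6.93% of all genes. In HUR fRIP the members spread widely, from -4.39 for RPS29 to 0.73 for RPL5. RPS29, a small subunit protein with the shortest reference transcript of the members at 295 bases, stood at 43.1, 34.2 and 34.2 FPKM in HUR fRIP and at 554 to 981 FPKM in input (median 838), a 20.9-fold lower level (adjusted p = 2.1e-26). RPL5 lay at 1057, 931 and 1058 FPKM, all above the inputs at 515 to 698 FPKM (median 601), with an SE of 0.14 and an adjusted p of 9.39e-06, and so was higher without passing the fold threshold. RPL3 and RPL4 were the other 2 members higher in HUR fRIP at an adjusted p under 0.05. The 17 members not depleted by HUR included RPL4, RPL5, RPL6, RPL7 and RPS6.

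Among the chromatin-associated proteins, SUZ12 and EZH2 of Polycomb repressive complex 2 and the deacetylase HDAC1 gave the lowest medians. These were -1.83 for SUZ12 (library SD 0.07, 63 members depleted against 8.6% of all genes), -1.75 for EZH2 (2 libraries, at -1.78 and -1.77) and -1.81 for HDAC1 (SD 0.10). The 3 members that EZH2 fRIP did not deplete were RPL39L, RPL3L and RPS10L. Of these, RPL3L and RPS10L were too low in input to leave much room for a call. Depletion was also common in CBX3 (57 members, against 3.65% of all genes), phospho-CBX3 (50, 2.91%), PHF8 (47, 1.71%), STAG2, first taken up as a negative control (46, 3.36%, with a median of -1.11), DNMT1 (44, 6.88%), LSD1 (39, 6.66%), CHD7 (33, 0.896%), CBP (30, 3.78%) and RBBP5 fRIP (25, 0.731%), and among RNA binding proteins in IMP1 (49, 10.5%) and HNRNPU fRIP (24, 2.52%). Against all inputs together it was rarer in WDR5 (15, 6.71%), PCAF (11, 8.54%), CHD1 (7, 1.0%) and CTCF fRIP (5, 0.79%). Of these 4, PCAF fRIP had the member share nearest to its background. With the matched input set the count was 30 for phospho-CBX3 and 12 for HNRNPU fRIP. Input set 1 alone gave 13 for CBP, 10 for CHD7, 8 for RBBP5, 5 for PCAF, 4 for WDR5, 3 for CTCF and 2 for CHD1 fRIP. Input set 3 alone gave 41 for RBBP5, 40 for WDR5, 22 for PCAF, 19 for CHD1 and 16 for CTCF fRIP, so the order of these fRIPs depended on the inputs used. WDR5 fRIP gave 25 without its replicate 3 and CTCF fRIP 3 without its replicate 1, and NUP98 fRIP gave 2 without its replicate 1 or 3. The replicate numbers paired the libraries of CHD1, NUP98, PCAF and WDR5 fRIP with input set 2, and against that set alone the counts were 11 for CHD1, 4 for NUP98 and 25 for WDR5 fRIP, the same with the pairing as a block as without it. Enrichment of members was called by limma in 0 cases in 18 fRIPs. These were SUZ12 (15.3% of all genes enriched), HNRNPU (13.1%), EZH2 (10.5%), CBP (9.08%), HDAC1 (8.42%), CBX3 (7.45%), HUR (6.42%), IMP1 (4.23%), WDR5 (3.9%), PHF8 (3.18%), phospho-CBX3 (2.58%), RBBP5 (2.28%), CHD7 (0.99%), STAG2 (0.979%), PCAF (0.515%), CHD1 and CTCF (0.424% each) and NUP98 fRIP (0.263%), and 0 to 3 members of each were higher at an unadjusted p under 0.05. After centring, the depleted members were 0 for WDR5, 1 for PCAF, 44 for RBBP5 and 50 for HNRNPU fRIP. Other settings gave a few enriched members in the 18 fRIPs. Examples are 1 each in CBP, CBX3 and HDAC1 fRIP at a pseudocount of 0.1 FPKM, and 1 in CBX3 fRIP with input set 3 alone.

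**Figure D2:**
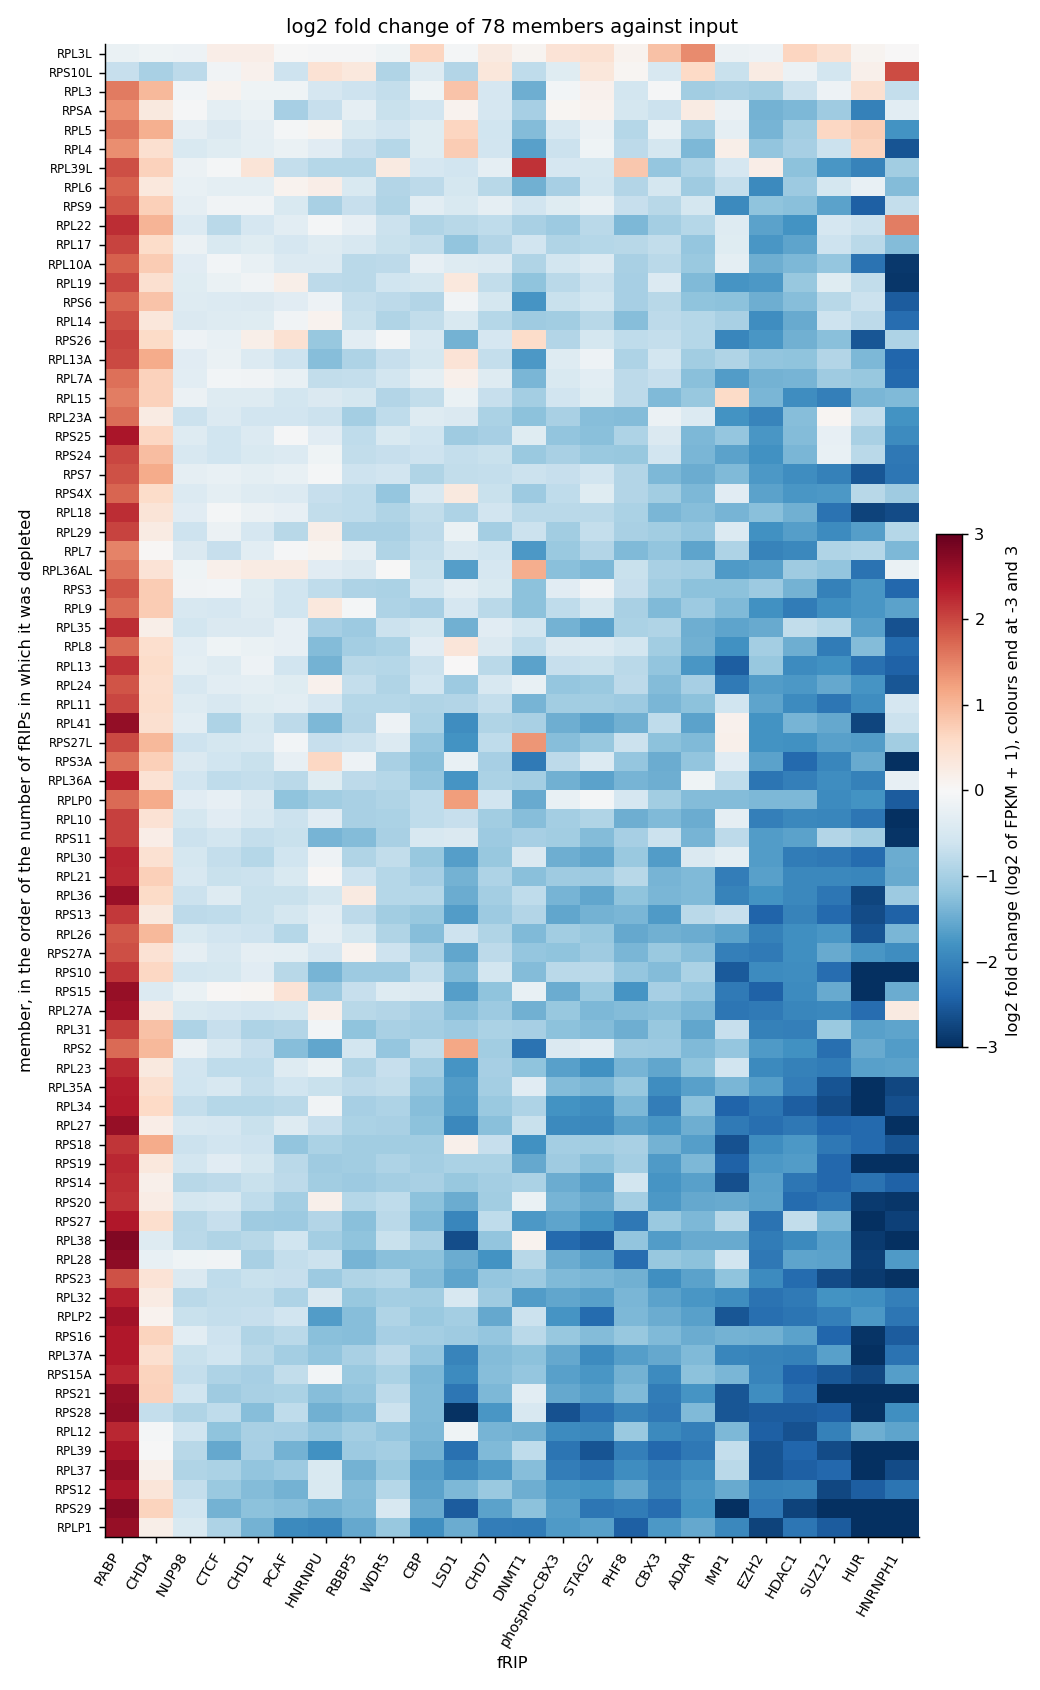
Log2 fold change over input of 78 of the RP mRNAs tested (rows, ordered by the number of fRIPs in which each was depleted) in the 24 fRIPs (columns), with colours clipped at 3 in size. The PABP column is positive in all rows but RPL3L and RPS10L, and the HUR and HNRNPH1 columns show the widest spread between rows.

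The 2 subunits moved together in most fRIPs, and a handful of fRIPs recovered large subunit mRNAs above small subunit mRNAs. The gap between the subunit medians (large minus small) lay between -0.07 and 0.04 in the 9 inputs. In HUR fRIP it was 0.49, with 0.40 to 0.61 in the single libraries, from medians of -1.84 for the large and -2.33 for the small subunit. HNRNPH1 fRIP gave 0.40 (0.30 to 0.58) and HNRNPU fRIP 0.35 (0.34 to 0.44), with 11 of 49 large and 13 of 33 small subunit members depleted in the latter. LSD1 fRIP gave 0.24 (0.10 to 0.28) and SUZ12 fRIP 0.17 (0.11 to 0.29). In these 5 fRIPs every library was above every input library, as were those of IMP1 (0.13 to 0.21) and CBP fRIP (0.055 to 0.096). PABP fRIP had a gap of 0.05 (-0.01 to 0.12), with 48 of 49 large and 32 of 33 small subunit members enriched. CHD4 fRIP gave -0.11 (-0.13 to -0.01). The gap is a value over chosen members and is given as a description with no test. Its size depended on the pseudocount, with 0.61 in HUR, 0.56 in HNRNPH1 and 0.42 in HNRNPU fRIP at 0.1 FPKM.

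The stalk of the large subunit, which recruits translation factors, is built on RPLP0 with RPLP1, RPLP2 and RPL12 beside it. All 4 were enriched by PABP, and all 4 were depleted in ADAR, CBX3, EZH2, HDAC1, HNRNPH1, HNRNPU, HUR, IMP1 and SUZ12 fRIP. RPLP1 and RPS29 were depleted in 20 of the 24 fRIPs, more than any other member. RPLP1 stood at 578 to 853 FPKM in the 9 inputs (median 751). It reached 4149, 3999 and 5423 FPKM in PABP fRIP (log2 fold change 2.62 ± 0.16, adjusted p = 1.44e-21) and 42.3, 66.3 and 64.4 FPKM in HNRNPH1 fRIP, the lowest log2 fold change of any member there (-3.66 ± 0.16, adjusted p = 2.18e-28). CHD1 fRIP, which depleted 7 members, left RPLP1 at 270.4, 256 and 297 FPKM (-1.41 ± 0.16, adjusted p = 1.15e-09). The CHD4 libraries lay at 1110, 535 and 960 FPKM and overlapped the inputs (0.19 ± 0.16, adjusted p = 0.371). RPLP1 was also the lowest of the members in CBP, CHD1, CHD7, EZH2, HNRNPU, PCAF, PHF8 and RBBP5 fRIP.

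RPLP0 was depleted in 11 fRIPs, against 16 for RPLP2, 18 for RPL12 and 20 for RPLP1. It was enriched in LSD1 fRIP, at 2364, 3254 and 2345 FPKM against 899 to 1319 FPKM in input (median 1103), where RPLP1 and RPLP2 were depleted and RPL12 lay at 425, 589 and 461 FPKM against 477 to 629 FPKM in input, so that 1 library overlapped the inputs and the other two lay below them (-0.12, adjusted p = 0.593). LSD1 is a histone demethylase, and its fRIP enriched 2 members, RPLP0 and RPS2, against 0.814% of all genes. The count was 5 after centring and 1 with input set 3 alone, where RPS2 fell short of the fold threshold at 0.98. The log2 fold change of RPLP0 in LSD1 fRIP was 1.25 ± 0.14 (adjusted p = 2.16e-10), the largest of any member there. RPLP0 and RPL22 were the members enriched in the most fRIPs, with 3 each, RPLP0 in CHD4, LSD1 and PABP fRIP. RPLP0 shares 70.8% of its 31-base words with other annotated genes, chiefly the pseudogene RPLP0P6, whereas RPLP1 shares 18.3% and RPLP2 13.4%. RPLP2 stood at 813 to 1367 FPKM in input and at 198, 194 and 152 FPKM in IMP1 fRIP, a level 5.94-fold lower (adjusted p = 8.51e-19).

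**Figure D3:**
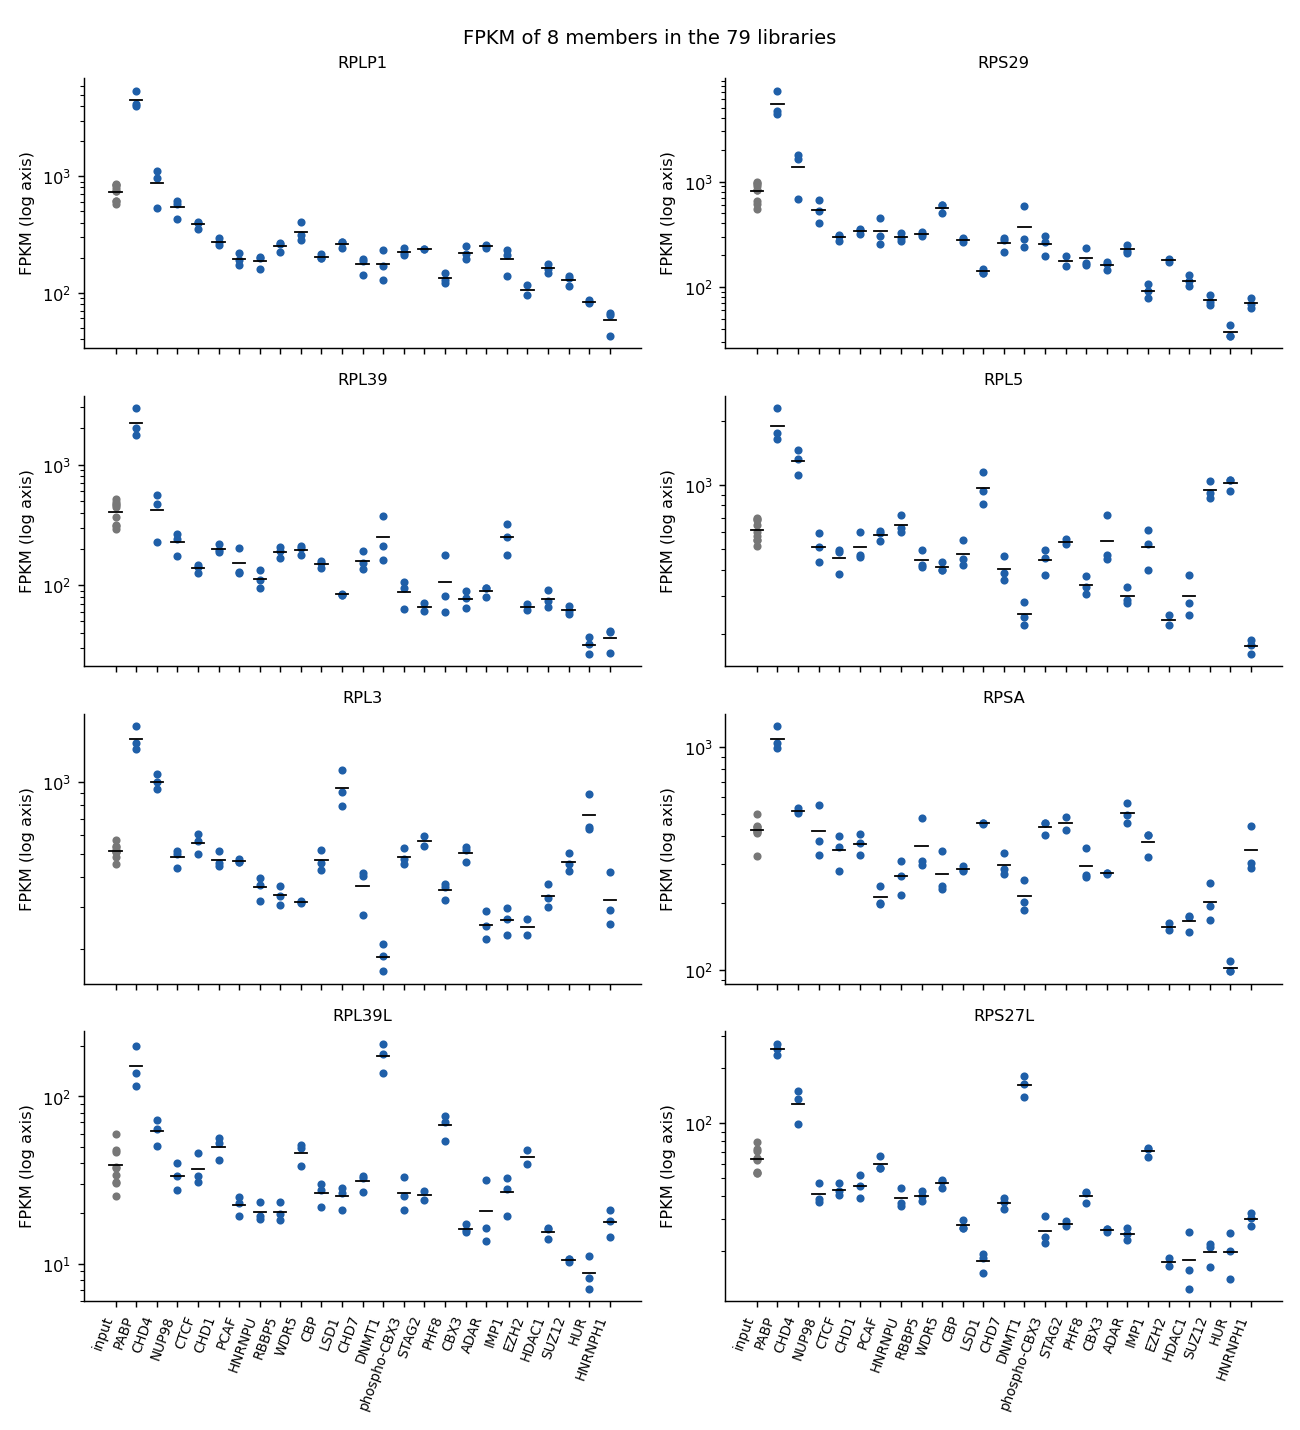
FPKM (log axis) of RPLP1, RPS29, RPL39, RPL5, RPL3, RPSA, RPL39L and RPS27L in each of the 79 libraries, grouped by fRIP with the inputs beside them, with black lines at the group means. RPLP1, RPS29 and RPL39 fall below the inputs in most fRIPs, RPL5 lies above them in HUR and SUZ12 fRIP, and RPL39L and RPS27L rise in DNMT1 as well as PABP fRIP.

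RPL5 and RPL11 join the smallest ribosomal RNA of the large subunit in a particle that also binds MDM2. Both were enriched by PABP, at 1.61 and 2.01, but they parted elsewhere. In SUZ12 fRIP, RPL5 stood at 915, 1040 and 867 FPKM, above all inputs (0.62 ± 0.14, adjusted p = 8.5e-05), and RPL11 at 373, 388 and 440.1 FPKM, below its inputs at 1423 to 2111 FPKM (-2.18 ± 0.14, adjusted p = 3.38e-20). HNRNPH1 fRIP showed the reverse order, with RPL5 at 161, 178 and 188 FPKM (-1.79 ± 0.14, adjusted p = 8.99e-18) and RPL11 at 1070, 1352 and 1411 FPKM (-0.51 ± 0.14, adjusted p = 0.00165). RPL5 hosts 3 snoRNA genes and shares 64.3% of its 31-base words with other genes, and RPL11 hosts none and shares 10.3%; whether either plays a part in the difference was not tested.

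RPL3, RPL8 and RPL10 lie near the site of peptide bond formation. RPL3 was depleted in only 3 fRIPs, ADAR, DNMT1 and EZH2, fewer than any member of the ribosome with a level above 10 FPKM. Its inputs stood at 453 to 573 FPKM (median 515). DNMT1 fRIP gave 161, 186 and 209.7 FPKM (-1.47 ± 0.12, adjusted p = 6.23e-16), whereas LSD1 fRIP gave 908, 1127 and 794 FPKM, all above input (0.86 ± 0.12, adjusted p = 5.44e-08) but under the fold threshold. RPL10 fell to 81.9, 82.4 and 77.4 FPKM in HNRNPH1 fRIP from 579.8 to 735 FPKM in input (-3.004 ± 0.13, adjusted p = 5.93e-28), and in IMP1 fRIP its 552, 700.4 and 416 FPKM overlapped the inputs. RPL8 was depleted in SUZ12 fRIP at 214, 213 and 263 FPKM (-2.09 ± 0.16, adjusted p = 6.37e-18) and lay at 1176, 1506 and 1153 FPKM in LSD1 fRIP, where it overlapped the inputs (726 to 1267 FPKM).

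Proteins around the exit tunnel (RPL4, RPL17, RPL19, RPL22, RPL23A, RPL26, RPL31, RPL35 and RPL39) were all 9 enriched by PABP and all 9 depleted by EZH2, while 4 were depleted by HUR and 3 by SUZ12. Of all genes, PABP enriched 11.1%, and EZH2 depleted 9.13%, HUR 6.93% and SUZ12 8.6%. RPL39, the smallest of the tunnel proteins, was depleted in 18 fRIPs. It stood at 296 to 516 FPKM in input (median 443), at 27.0, 32.5 and 37.01 FPKM in HUR fRIP (-3.61 ± 0.22, adjusted p = 9.03e-21) and at 2001, 1757 and 2938 FPKM in PABP fRIP (2.44 ± 0.22, adjusted p = 1.54e-14). It had the lowest log2 fold change of the members in ADAR, CBX3, CTCF and STAG2 fRIP. RPL4, which lines the tunnel, went the other way in HUR fRIP at 1773, 1795 and 2313 FPKM, above its inputs at 1055 to 1506 FPKM (0.66 ± 0.13, adjusted p = 3.74e-05), but fell to 192, 211 and 209.96 FPKM in HNRNPH1 fRIP (-2.59 ± 0.13, adjusted p = 5.09e-25). RPL22 was the single protein-coding member that HNRNPH1 enriched (24.5% of all genes were), at 458, 453 and 493 FPKM against 118 to 199.97 FPKM in input (median 176), a log2 fold change of 1.54 ± 0.14 (adjusted p = 1.32e-14). After centring the value was 0.81, under the fold threshold. RPL22 was also enriched in PABP fRIP (2.22) and in CHD4 fRIP (1.02, and under 1 without CHD4 replicate 1 at 0.88 or replicate 3 at 0.93), and its reference transcript of 2061 bases is longer than that of most members.

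In the small subunit, RPS2, RPS3 and RPS23 lie at the mRNA entry channel and the decoding site. All 3 were enriched by PABP and depleted in ADAR, CBX3, DNMT1, EZH2, HDAC1, HNRNPH1, HUR, IMP1 and SUZ12 fRIP. LSD1 fRIP divided them. RPS2 was enriched at 1230, 1345 and 1134 FPKM against 435 to 666 FPKM in input (1.17 ± 0.14, adjusted p = 3.21e-09), while RPS3 overlapped its inputs at 1156, 1272 and 1003 FPKM (-0.32 ± 0.15, adjusted p = 0.108). RPS2 in turn had the lowest log2 fold change of any member in DNMT1 fRIP, at 99.2, 107 and 149 FPKM (-2.22 ± 0.14, adjusted p = 1.27e-19). RPS2 shares 83.0% of its 31-base words with other genes, whose part in these values was not tested. RPS23 fell to 139, 179 and 189 FPKM in HNRNPH1 fRIP from 1008 to 1576 FPKM in input, a level 7.78-fold lower (adjusted p = 7.87e-24).

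RPSA, RPS14, RPS26 and RPS28 lie at the mRNA exit and the platform, and all 4 were enriched by PABP and depleted by EZH2, HDAC1, HUR and SUZ12. RPS28, whose protein contacts mRNA near the exit, was the lowest member in LSD1 fRIP at 17.2, 12.7 and 16.2 FPKM against 96.4 to 164 FPKM in input (median 136), with a log2 fold change of -2.96 ± 0.21 (adjusted p = 8.17e-17). It was also the lowest in phospho-CBX3 fRIP at 20.8, 18.2 and 20.3 FPKM (-2.61 ± 0.21, adjusted p = 5.96e-15). RPSA, which doubles as the precursor of a laminin receptor, was depleted in only 4 fRIPs. In ADAR fRIP, where most members fell, RPSA lay at 498, 457 and 559.8 FPKM against 324 to 501.5 FPKM in input and overlapped it (0.25 ± 0.14, adjusted p = 0.114), and its isoforms there are described with the isoform classes. RPS14 was depleted 6.22-fold in IMP1 fRIP at 127, 110.2 and 103 FPKM against 522 to 959.7 FPKM in input (adjusted p = 4.36e-20).

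RPS6, the substrate of S6 kinase, and RPS27A, which is made as a fusion with ubiquitin, were enriched by PABP at 1.74 and 1.94. RPS6 was lowest in HNRNPH1 fRIP at 173, 192 and 194 FPKM against 948 to 1211 FPKM in input (-2.49 ± 0.12, adjusted p = 3.79e-26). It was not depleted by HUR, where it lay at 668, 615 and 723 FPKM (-0.65 ± 0.12, adjusted p = 7.56e-06), whereas RPS27A fell to 106, 105 and 121 FPKM from 307 to 476 FPKM (-1.75 ± 0.15, adjusted p = 5.96e-15). RBBP5 fRIP left RPS27A at 384, 408 and 416 FPKM, within the inputs. RPS12, which was depleted in 19 fRIPs, rose to 6421, 5923 and 7484 FPKM in PABP fRIP from 916 to 1553 FPKM in input and was depleted even in CTCF fRIP, at 479, 605 and 602 FPKM (-1.11 ± 0.19, adjusted p = 1.82e-05), although it was not called there with the matched input set (-0.84) or without CTCF replicate 1 (-0.998).

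Further members stood at an extreme of single fRIPs. RPL15 was the highest in IMP1 fRIP at 366, 429.9 and 272 FPKM against 208 to 294 FPKM in input, so that 1 library overlapped the inputs (0.57 ± 0.14, adjusted p = 0.000409), and RPS29 was the lowest there at 106, 91.2 and 78.8 FPKM (-3.11 ± 0.20, adjusted p = 7.08e-20). RPS3A was the highest in HNRNPU fRIP at 851, 898 and 926 FPKM, above its inputs at 499 to 653 FPKM (0.63 ± 0.14, adjusted p = 0.000106). RPL31 was the lowest in NUP98 fRIP (-0.92 ± 0.16, adjusted p = 2.11e-05) and RPL28 in WDR5 fRIP (-1.25 ± 0.16, adjusted p = 4.67e-09, and -0.87 and not called after centring). RPS26 was the highest in PCAF fRIP, where its 58.1, 73.7 and 139.7 FPKM lay across the inputs at 37.3 to 122 FPKM (0.46 ± 0.30, adjusted p = 0.249). RPS26 was variable in input itself, at 65.1 ± 26.1 FPKM (SD, n = 9).

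DNMT1, the maintenance DNA methyltransferase, enriched 3 of the 82 members, against 9.56% of all genes. These were RPL39L, RPL36AL and RPS27L, which are paralogs, copies that arose from other RP genes. RPL3L, also a paralog, and RPS10L were not enriched by DNMT1. RPL39L stood at 138, 207 and 179 FPKM against 25.3 to 59.99 FPKM in input (median 37.2), with a log2 fold change of 2.17 ± 0.19 (adjusted p = 1.12e-14). RPS27L reached 139, 180.1 and 164 FPKM against 53.3 to 78.7 FPKM (1.33 ± 0.13, adjusted p = 1.23e-12), and RPL36AL 112, 113 and 124 FPKM against 37.8 to 85.6 FPKM (1.08 ± 0.20, adjusted p = 5.25e-06), with RPL36AL at 0.77 and not called with input set 2 alone. All 3 were also enriched by PABP, at 1.94, 1.98 and 1.62. RPL39L, RPS27L and RPL36AL share 8.87%, 4.62% and 33.3% of their 31-base words with other genes, whose part in these values was not tested. In LSD1 fRIP RPS27L and RPL36AL were depleted (-1.80 and -1.64), but not with the matched input set and centring (-0.96 and -0.68), and in EZH2 fRIP RPL39L lay within its inputs at 39.7 and 47.7 FPKM. RPL3L, a muscle paralog of RPL3, was enriched in ADAR fRIP (1.41 ± 0.23, adjusted p = 1.99e-07) from 0.255, 4.21 and 4.34 FPKM against at most 0.384 FPKM in input (26.6% of all genes were enriched), but the first library overlapped the inputs, ADAR libraries were the shallowest, and after centring the value was 0.44 and no longer called. RPS10L rose in HNRNPH1 fRIP to 8.11, 8.23 and 7.84 FPKM from 0.361 to 2.71 FPKM in input (1.96 ± 0.24, adjusted p = 2.98e-10), and it shares 42.5% of its 31-base words with other genes.

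Over all fRIPs, 80 members were depleted at least in 1, 49 in 10 or more, and the median member in 11. RPL3L and RPS10L were depleted in 0 fRIPs, RPL3 in 3 and RPSA in 4, and RPL4, RPL5, RPL6, RPL17, RPL22, RPL39L and RPS9 in 5 each. RPL3L, at 0.234 FPKM in mean input, could not fall by 1 on the log2(FPKM + 1) scale, and RPS10L, at 1.42 FPKM, barely could. RPL12, RPL37 and RPL39 were depleted in 18. Enrichment was called in PABP fRIP alone for 70 members and in at least 2 fRIPs for 10.

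Related targets were also compared directly, which needs no input. Between phospho-CBX3 and CBX3 fRIP, limma called 0 members higher (0.33% of all genes) and 0 lower (2.4%), with 22 higher and 10 lower at an unadjusted p under 0.05, and the largest difference was that of RPLP0 (0.83 ± 0.17, adjusted p = 0.000437). SUZ12 and EZH2 fRIP differed in 15 members. SUZ12 was matched to input set 1 and EZH2 to input set 3, whereas the targets of each other pair shared a set. Of the 11 members higher in SUZ12 fRIP, 8 belong to the large subunit, as do 49 of the 82 tested, and RPL7, RPL17 and RPL22 were not called after centring. The median difference was 0.28 for the large and -0.30 for the small subunit. RPL23A (2.03 ± 0.21, adjusted p = 3.05e-12) and RPL5 (2.01 ± 0.19, adjusted p = 2.08e-14) differed most, with RPL23A at 465, 444 and 408 FPKM in SUZ12 and 106 and 108 FPKM in EZH2 fRIP. RPL39L, RPL8, RPS21 and RPS29 were lower in SUZ12 fRIP. Of all genes 18.5% were called higher and 13.1% lower in SUZ12 fRIP, so the members were called no more often than genes at large, and after centring 7 members were higher and 8 lower. Between WDR5 and RBBP5 fRIP, both subunits of histone methyltransferase complexes, RPL39L was higher in WDR5 fRIP (1.13 ± 0.23, adjusted p = 5.56e-05) and RPL36 (-1.13 ± 0.17, adjusted p = 9.34e-08) and RPS10L (-1.22) were lower, against 5.17% and 12.9% of all genes, but after centring 9 members were higher and 0 lower.

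The pattern of the members was set beside those of neighbouring lists. The 77 mitochondrial ribosomal protein genes, whose products work in a separate ribosome, were enriched by PABP in 61 cases (79.2%, against 11.1% of all genes) at a median of 1.34, beside the 2.05 of the members. In EZH2 fRIP 9 of these 77 were depleted (11.7%, median -0.62) against 9.13% of all genes, and in DNMT1 fRIP 2 were depleted (2.6% against 6.88%) and 7 enriched (9.09% against 9.56%, median 0.26), so that the EZH2 and the DNMT1 enriched counts were near their background. Of the 82 members 79 and 44 were depleted there. HUR depleted 36 of the 77 (46.8% against 6.93%) and SUZ12 40 (51.9% against 8.6%). Of 19 translation factors and other TOP mRNAs, 15 were enriched by PABP (78.9%, median 1.34) and 15 depleted by EZH2, but HUR depleted 2 and enriched 2 (10.5% each, against 6.93% and 6.42% of all genes, median -0.29), and LSD1 enriched 5 (26.3% against 0.814%) and depleted 0 (median 0.60). Of 16 ribosome biogenesis genes, SUZ12 enriched 8 (50% against 15.3% of all genes) and depleted 3 (18.8% against 8.6%), with a median of 0.98 beside the -1.83 of the members. PABP enriched 4 of the 16 (25% against 11.1%) and depleted 2 (12.5% against 14.7%). Ribosomal protein genes whose symbols lie outside the rule included FAU, enriched by PABP (2.14), and RPL7L1, which was not (0.07) and which rose in ADAR fRIP by 3.13 ± 0.12 (adjusted p = 1.44e-30). Of 698 RP pseudogenes, 327 passed the filter, and PABP enriched 67 (20.5% against 11.1% of all genes) and depleted 56 of them (17.1% against 14.7%) at a median of -0.14, beside the 2.05 of the members. The 18 members linked to Diamond-Blackfan anemia, an inherited red cell aplasia, were all enriched by PABP and all depleted by EZH2, as were nearly all other members.

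RP mRNAs are short, and the shortest of them departed furthest from input in many fRIPs. The reference transcript of a gene was its isoform with the highest mean FPKM in input, whatever its class. For some members it was not a coding isoform, such as the retained intron isoforms of RPL4 and RPS28. The reference transcripts of the 79 members with at least 10 FPKM in input had a median length of 625 bases (295 to 7072) against 2336 bases for 13500 other mRNA genes, with a GC share of 49.5% against 49.1%. Across the members, Spearman's correlation of length with the log2 fold change was -0.64 in PABP fRIP, where short mRNAs rose most, and 0.72 in STAG2, 0.68 in LSD1, 0.65 in phospho-CBX3 and 0.57 in HUR fRIP, where short mRNAs fell most. In WDR5 fRIP it was -0.04 and in DNMT1 fRIP -0.36. Across all 13579 mRNA genes the values were -0.38 in PABP, 0.12 in STAG2, 0.30 in LSD1 and 0.34 in HUR fRIP. These correlations run across genes that share libraries and are given without a p. FPKM of transcripts near the length of a sequenced fragment depends on how the effective length was estimated, and its part in these values was not tested.

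**Figure D4:**
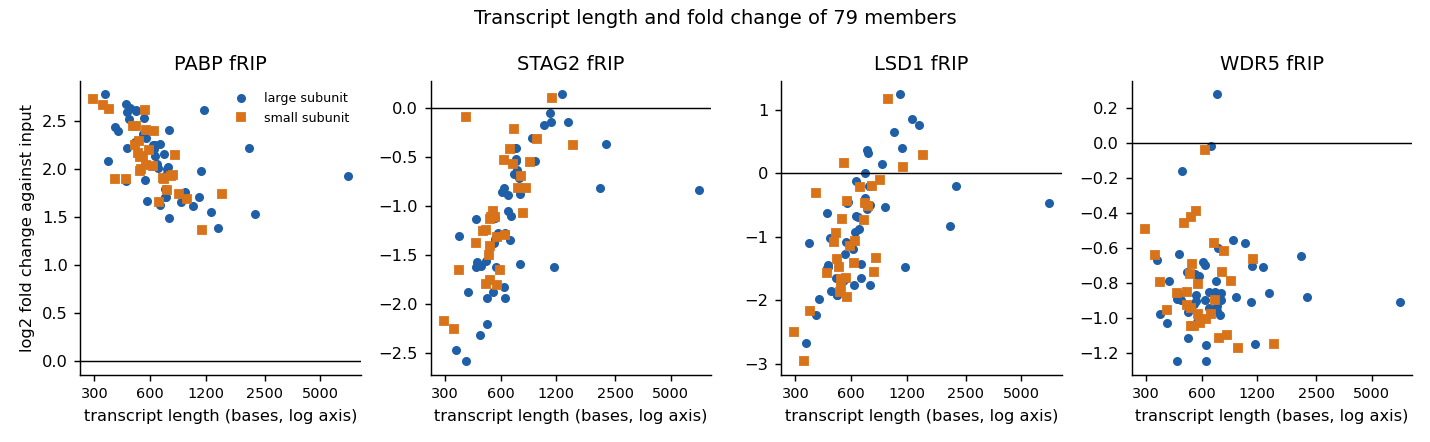
Log2 fold change over input against transcript length (bases, log axis) for the 79 RP mRNAs at 10 FPKM or more in input, in PABP, STAG2, LSD1 and WDR5 fRIP. Longer members lie lower in PABP fRIP and higher in STAG2 and LSD1 fRIP, and WDR5 fRIP shows no slope (Spearman's correlation -0.04).

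The median of the 44 members with the pyrimidine run at the start shown above lay further from 0 than that of the 20 without it in 21 of 24 fRIPs and nearer to 0 in 3. In PABP fRIP it was 2.22 with the run (quartiles 1.92 and 2.44) and 1.99 without (1.76 and 2.08), and in STAG2 fRIP -1.30 (-1.63 and -0.82) and -0.77 (-1.12 and -0.53). In HNRNPH1 fRIP it was -2.35 (-2.64 and -1.57) and -1.73 (-2.67 and -1.23), with widely overlapping quartiles. The order was the reverse in DNMT1 (-1.02 with and -1.12 without), HDAC1 (-1.81 and -1.85) and CHD4 fRIP (0.49 and 0.53). The difference was not tested. The group without the run included members such as RPL6, RPL10, RPL11, RPL15 and RPS29, for which no annotated transcript starts within the window. For these the split describes the window and not the start of the mRNA. The translation factor list held the run in 10 of 12 genes with a window (83.3%), the mitochondrial list in 7 of 67 (10.4%) and the biogenesis list in 1 of 14 (7.14%). The 29 members that host snoRNA genes (60 snoRNA genes in all) had a median of -0.47 in LSD1 and -1.76 in HUR fRIP against -1.09 and -2.21 for the other 50, but were the further from 0 in 8 fRIPs, such as DNMT1 (-1.27 against -0.98), SUZ12 (-1.94 against -1.74) and CHD7 (-1.01 against -0.81). The median member shared 49.4% of its 31-base words, the read length used, with other annotated genes (3.64% to 97.2%). Less than 20% was shared by 16 members, of which 14 had at least 10 FPKM in input. Of these 14, PABP enriched 14 (median 2.28, beside 2.04 for the 65 others at that level), HDAC1 depleted 14 and EZH2 13. DNMT1 depleted 4 of the 14 (median -0.76) and 40 of the 65 (median -1.17), and in LSD1 fRIP the medians were -1.25 and -0.73.

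The isoform table separates spliced coding transcripts from retained intron and other noncoding transcripts of the same gene. Most of the RP signal in input came from protein-coding isoforms, at 84.8% ± 0.895 (SD, n = 9) of the members' summed isoform FPKM, with 5.09% ± 0.479 in retained intron isoforms. In HNRNPH1 fRIP the coding share was 63.2% ± 2.41 (n = 3) and the retained intron share 26.0% ± 1.97, and no library of HNRNPH1 fRIP overlapped any input. ADAR fRIP gave retained intron shares of 16.1% ± 0.230, SUZ12 14.0% ± 1.74, CBX3 13.8% ± 0.576 and HUR 13.4% ± 0.451, and PABP 3.16% ± 0.138, below all inputs. Shares were estimated by the authors' software from 31-base reads over overlapping isoforms. In HNRNPH1 fRIP the median log2 fold change was -2.78 for the coding and 1.02 for the noncoding isoforms of the members, and in PABP fRIP 2.07 and 0.18. EZH2 fRIP was lower in both (-1.76 and -1.39). Of 76 members examined singly, the coding share lay below that of every input in each HNRNPH1 library in 64 (84.2%), against 58% of 6359 mRNA genes, and in 62 (81.6%) in CBX3 fRIP, against 42.6%. It lay above every input in each PABP library in 50 members (65.8%), against 47.5%.

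**Figure D5:**
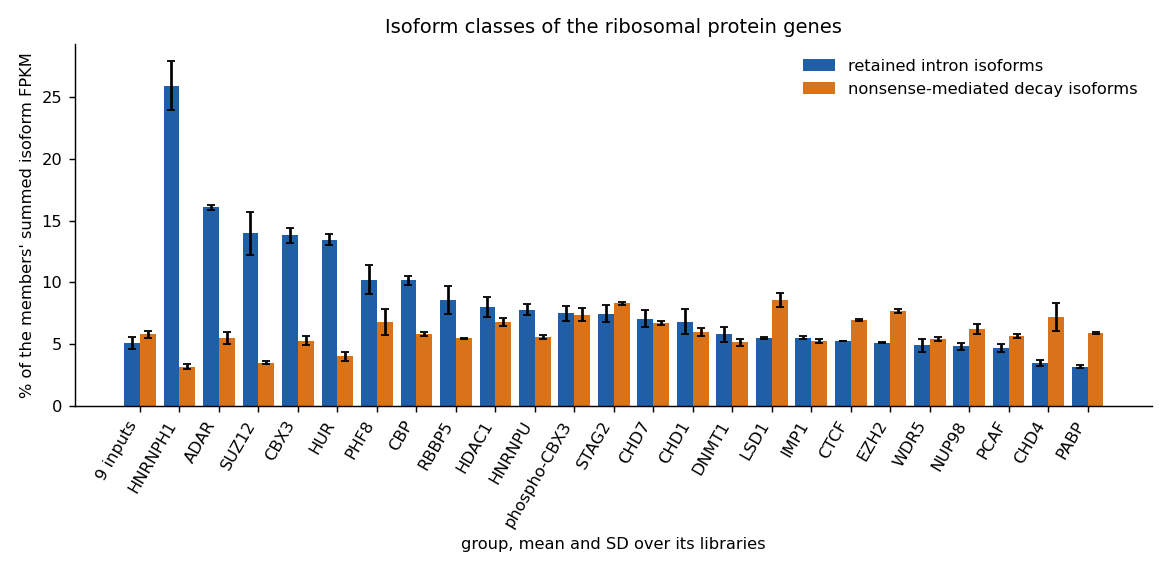
Share of the members' summed isoform FPKM (percent, bars from 0) in retained intron and nonsense-mediated decay isoforms, with bars at the mean of each fRIP or the 9 inputs and whiskers at the SD between libraries. Retained intron shares are highest in HNRNPH1 fRIP at 26.0%, followed by ADAR fRIP at 16.1%, against 5.09% in input and 3.16% in PABP fRIP.

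RPSA and RPL3, which were among the members least often depleted as genes, lost much of their coding share in some fRIPs. The coding share of RPSA was 80.03% to 92.03% in the inputs (mean 87.4%) and 7.59% to 15.4% in ADAR fRIP (mean 11.96%) and 6.11% to 9.84% in HNRNPH1 fRIP (mean 7.69%), with adjusted p of 0.0105 and 0.00755 in the exact permutation test corrected over all 6359 genes. In PABP fRIP it was 99.6% to 99.8%, above every input. RPSA hosts 2 snoRNA genes in its introns and shares 81.6% of its 31-base words with other genes, and their part in these shares was not tested. For RPL3 the coding share was 91.9% ± 2.56 in input and 26.8% ± 4.39 in HNRNPH1 fRIP. RPL10 stood at 94.8% ± 0.717 in input and 30.99% ± 4.89 in HNRNPH1 fRIP, and its coding share was below every input in 16 fRIPs, as were those of RPL12 and RPL17. RPL22, which HNRNPH1 enriched, kept a coding share of 85.4% ± 2.70 against 91.2% ± 3.79 in input (adjusted p = 0.0611 in the exact permutation test), and RPL37 rose from 26.2% ± 4.24 to 59.4% ± 2.71.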

How the data were processed

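RNA from 79 K562 libraries (70 fRIP, 9 input) was analysed. Per the study's methods, 31-base paired reads were mapped to hg19 with TopHat and FPKM values of GENCODE genes and isoforms were estimated with the Cufflinks tools. Those FPKM tables are used here as the authors deposited them. The submitters' processing notes also name Cuffnorm and CASAVA 1.4. Read filters and strand: not given in the sources used here. Fold changes and p-values stand in the authors' table of comparisons and were not used, and only its deposited input FPKM values served to find which input set each fRIP had been matched with.

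The 25442 of 48453 genes that reached 1 FPKM in 2 or more libraries were tested with limma 3.58.1 (R 4.3.3, trended variance) on log2(FPKM + 1) in a single fit of all 79 libraries, each fRIP against the mean of 9 inputs, with Benjamini-Hochberg adjustment over all genes within a comparison. A log2 fold change on this scale understates changes of low genes. Single members were also tested with the two-sided exact permutation test. Isoform shares used that test with adjustment over all 6359 mRNA genes, a departure from the adjustment over members first planned. Of 770 member isoforms 743 were matched to the reference, and the rest held 4.56% of input isoform FPKM. Lengths, isoform classes, snoRNA genes and 31-base words came from GENCODE annotation on GRCh37, and start windows from RefSeq (GRCh38.p14), matched exactly to GRCh37.

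Depth was read from the spacing of low FPKM values, of which 75.1% to 88.2% came out whole within 0.15. On simulated data with the libraries of PABP fRIP, 94% of genes changed by 1.5 on the log2 scale were recovered, and 89.5% with those of STAG2 fRIP (25442 genes each). Pairing was checked as the correlation of the deviations of same-numbered fRIP and input libraries. Every pair exceeded 0.1 only for CHD1, NUP98, PCAF and WDR5 fRIP (0.129 to 0.599), all matched to input set 2. The STAG2 library with no number was dropped from fits with the block.

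The members and lists were chosen with earlier results of these data known. Genes are named by role list, as paralogs, as the highest or lowest member of a fRIP, as called in the most fRIPs, or by the highest and lowest input levels, and others named singly were chosen after their values were seen. Alternatives covered the pseudocount, the filter, centring, the inputs, the replicate block and each library left out. Results of some single members are not reported here.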

Additional observations from a re-analysis of the deposited data

Results flagged for a closer look

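Among the 9 inputs, 2 of 85 sets of values had a library that stood apart by Dixon's ratio beyond its critical value for 9 samples, where chance alone flags about 1 set in 20. RPL6 lay at 499 FPKM in input set 2 replicate 3 and at 295 to 365 FPKM in the other 8 (ratio 0.595). RPSA lay at 324 FPKM in input set 1 replicate 1 and at 412 to 501.5 FPKM in the others (ratio 0.548).

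The direct difference between SUZ12 and EZH2 fRIP passed the test with a log2 difference beyond 1 for 15 members. Those higher in SUZ12 fRIP included RPL23A (2.03), RPL5 (2.01), RPS24 (1.59), RPS25 (1.52), RPL6 (1.39), RPL19 (1.37), RPL14 (1.24), RPL17 (1.12), RPL7 (1.11) and RPL22 (1.11). The 4 lower were RPL39L (-1.95), RPS29 (-1.26), RPS21 (-1.19) and RPL8 (-1.07). Between WDR5 and RBBP5 fRIP the same held for RPL39L (1.13), RPL36 (-1.13) and RPS10L (-1.22). After centring, RPL7, RPL17, RPL22, RPL36 and RPS10L no longer passed.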

How the results depend on the processing

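PABP enriched 79 or 80 members under every alternative, with a median between 1.91 and 2.54. None of the 1014 calls of members changed direction in the 23914 repeats under these alternatives, of which 1036 lost the call. LSD1 enriched 5 members after centring, 10 with the matched set and centring, and 1 with input set 3.

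With each library centred on its median, the member medians were -2.30 for ADAR, 0.88 for CHD4, -2.10 for HDAC1, -2.84 for HNRNPH1, -1.23 for HNRNPU, -0.88 for IMP1, -0.48 for LSD1 and WDR5, -0.053 for NUP98, 2.54 for PABP, -1.34 for PHF8 and 0.030 for PCAF fRIP, the last with its sign turned. Depleted members were then 50 for HNRNPU, 1 for PCAF, 44 for RBBP5 and 0 for WDR5, and CHD4 enriched 30. SUZ12 against EZH2 gave 7 higher and 8 lower, WDR5 against RBBP5 9 and 0, and phospho-CBX3 against CBX3 1 higher. The cause was not tested.

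With input set 1 alone, medians were -1.08 for ADAR, -0.64 for CBP and LSD1, -0.98 for CBX3, -1.55 for EZH2, -1.50 for HDAC1, -1.76 for HNRNPH1, -0.87 for PHF8, -0.85 for STAG2 and -0.63 for WDR5, and the depleted members were 13 for CBP, 2 for CHD1, 10 for CHD7, 3 for CTCF, 12 for HNRNPU, 1 for NUP98, 5 for PCAF, 30 for phospho-CBX3, 8 for RBBP5 and 4 for WDR5, with 16 enriched by CHD4. With set 2 they were 11 for CHD1, 9 for CTCF, 4 for NUP98 and 25 for WDR5. With set 3 they were 19 for CHD1, 16 for CTCF, 6 for NUP98, 22 for PCAF, 41 for RBBP5 and 40 for WDR5, with 1 enriched by CHD4. The member medians of the inputs of set 1 were the lowest of the inputs, from -0.28 to -0.19.

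With the matched input set, medians were -1.08 for ADAR, -0.98 for CBX3, -1.50 for HDAC1, -1.76 for HNRNPH1, -0.64 for LSD1 and -0.85 for STAG2, and depleted members 11 for CHD1, 3 for CTCF, 12 for HNRNPU, 4 for NUP98, 30 for phospho-CBX3 and 25 for WDR5, with 16 enriched by CHD4. The replicate block within the matched set gave these same values except for STAG2, whose median was -0.82 with 30 depleted after its unnumbered library was dropped. The replicate block over all libraries changed no count by over 1.5 times. Outside CHD1, NUP98, PCAF and WDR5 at least 1 same-numbered pair had a correlation of 0.1 or less. Some pairs there exceeded it, such as those of RBBP5 fRIP at 0.289 and 0.445, so whether those libraries were paired with their inputs is not settled.

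A setting chosen after seeing the data, the matched set with centring, gave medians of -1.87 for ADAR, -0.92 for CBX3, 1.31 for CHD4, -0.034 for CTCF, -0.59 for DNMT1, -2.50 for HUR, -0.48 for IMP1, -0.038 for LSD1, -0.13 for PCAF, -1.56 for PHF8, -0.62 for phospho-CBX3 and WDR5, -1.25 for RBBP5, -0.60 for STAG2 and -1.47 for SUZ12. Depleted members were 35 for CBX3, 50 for CHD7, 0 for CTCF, 15 for DNMT1, 18 for IMP1, 10 for LSD1, 2 for PCAF, 76 for PHF8, 19 for phospho-CBX3, 60 for RBBP5, 21 for STAG2 and 3 for WDR5, and CHD4 enriched 67.

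A pseudocount of 0.1 FPKM gave 1 depleted for NUP98 and subunit gaps of 0.16 for CBP, 0.021 for DNMT1 (its sign turned), -0.0093 for HDAC1, 0.56 for HNRNPH1, 0.42 for HNRNPU, 0.61 for HUR and 0.041 for phospho-CBX3. It also gave 1 depleted for CHD4 and 1 enriched each for CBP, CBX3 and HDAC1. Leaving out isoforms under 300 bases gave coding shares of 83.4% for EZH2 and IMP1 and 85.4% for PABP.

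Leaving out 1 library at a time gave 3 to 7 depleted for CTCF (3 without replicate 1), 0 to 2 for NUP98 (2 without replicate 1 or 3) and 10 to 25 for WDR5 (25 without replicate 3), and 4 to 11 enriched for CHD4 (11 without replicate 2). Subunit gaps ranged from -0.048 to 0.065 for CBX3, -0.031 to 0.101 for CHD1, -0.0996 to -0.0035 for DNMT1, -0.0993 to -0.0092 for HDAC1, 0.088 to 0.182 for IMP1, -0.076 to 0.013 for RBBP5 and -0.046 to 0.053 for phospho-CBX3. The limit that depth sets in each fRIP was not compared. The 3 ADAR libraries held the fewest fragments.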
